A study of Homo sapiens with 20 samples.

Results

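The RNA of the EGF family ligands was followed in MDA-MB-468 cells before and during EGF-treatment. The ligands were chosen by gene symbol, as AREG, EREG, HBEGF, TGFA, BTC, EPGN, EGF and NRG1, which are 8 of the 60271 genes in the deposited count table. MDA-MB-468 is an established human epithelial line from a triple negative breast cancer, and it carries much EGF receptor. Bulk RNA-seq libraries were made from 5 groups of 4 biological replicates, which gave 20 libraries. In every group, controls included, the serum was withdrawn one day before the point at which EGF was first given. The EGF groups then received EGF at 50 ng/mL for 12, 24, 48 or 72 h, and the control received none. Cultures of all groups were seeded together and harvested together, so the groups differ by when EGF was added. All data come from one cell line, and from RNA only, so the added EGF peptide itself is not part of any value. The spread between replicates is that between cultures of this one line.

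The EGF family ligands are made as membrane-bound precursors, and ADAM proteases at the cell surface cut them to release the soluble growth factor. Amphiregulin (AREG), transforming growth factor alpha (TGFA), epigen (EPGN) and EGF bind the EGF receptor (EGFR). Epiregulin (EREG), heparin-binding EGF-like growth factor (HBEGF) and betacellulin (BTC) bind EGFR and also ERBB4, and neuregulin 1 (NRG1) binds ERBB3 and ERBB4. An active EGFR signals through the ERK pathway, and several ligand genes are known targets of that pathway, by which an epithelial cell can feed its own receptor.

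The genes for EPGN, EREG, AREG and BTC lie side by side on chromosome 4. In GENCODE 29 on GRCh38, EPGN is at chr4:74308473-74315307, EREG at chr4:74365143-74388751 and AREG at chr4:74445134-74455009, all on the plus strand, and BTC is at chr4:74744759-74794686 on the minus strand. The gaps are 49.8 kb between EPGN and EREG, 56.4 kb between EREG and AREG, and 289.7 kb between AREG and BTC. EGF lies farther along the same chromosome at chr4:109912884-110012266 on the plus strand. HBEGF is at chr5:140332843-140346631 and TGFA at chr2:70447280-70554193, both on the minus strand. None of the 8 genes shares exon bases with another annotated gene on either strand.

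The promoters of the 3 neighbouring ligand genes that rose, and of EGF, the ligand gene that fell most, are shown for comparison. Each is 240 bases of plus strand, from 250 to 11 bases before the transcription start of RefSeq on GRCh38.p14. The positions are chr4:74308220-74308459 for EPGN, chr4:74364895-74365134 for EREG, chr4:74444886-74445125 for AREG and chr4:109912633-109912872 for EGF. Capitals mark the only matches to the 2 motifs searched on both strands, the AP-1 site TGAGTCA and the cAMP response element TGACGTCA.
EPGN: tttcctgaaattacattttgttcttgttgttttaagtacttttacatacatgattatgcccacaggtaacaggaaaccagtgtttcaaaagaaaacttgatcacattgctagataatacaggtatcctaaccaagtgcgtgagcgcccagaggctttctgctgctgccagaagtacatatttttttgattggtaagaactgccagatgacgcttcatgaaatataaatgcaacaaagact
EREG: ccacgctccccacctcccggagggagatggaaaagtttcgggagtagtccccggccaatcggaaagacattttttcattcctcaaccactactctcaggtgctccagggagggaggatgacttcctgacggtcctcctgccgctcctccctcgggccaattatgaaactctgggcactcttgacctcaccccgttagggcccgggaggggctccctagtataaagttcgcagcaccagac
AREG: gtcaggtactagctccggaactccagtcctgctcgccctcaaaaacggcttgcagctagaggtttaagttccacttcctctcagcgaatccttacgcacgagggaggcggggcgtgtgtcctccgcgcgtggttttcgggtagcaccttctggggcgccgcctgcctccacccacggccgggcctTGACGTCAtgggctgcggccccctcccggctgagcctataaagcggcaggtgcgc
EGF: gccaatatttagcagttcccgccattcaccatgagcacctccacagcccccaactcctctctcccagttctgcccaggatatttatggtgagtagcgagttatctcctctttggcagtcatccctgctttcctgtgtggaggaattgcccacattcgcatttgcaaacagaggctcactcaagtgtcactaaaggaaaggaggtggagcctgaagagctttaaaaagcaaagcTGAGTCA
The cAMP response element of AREG began 65 bases before the start, and the AP-1 match of EGF 17 bases before it. Of 35116 promoter windows in the RefSeq table, 4.95% held TGAGTCA and 1.85% held TGACGTCA, and the motifs do not overlap each other. No window of EREG, EPGN, HBEGF, TGFA or BTC held either motif. A match of letters is a description only, and no binding was measured.

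The libraries held from 15611961 to 25856953 counts, with the lowest group median, 17292986, at 72 h and the highest, 21972653, at 12 h. Mitochondrial genes took from 7.69% to 16.9% of the counts, with group means, from the control to 72 h, of 10.9, 9.41, 12.4, 12.5 and 15.0%. This share moved with the groups, and its part in the ligand values was not tested. The epithelial marker EPCAM was between 144 and 215 CPM in the group means, and was called higher at 12 h and lower at 48 and 72 h. The other epithelial markers did not all move with it. CDH1 was called higher at 12 h and lower at 24, 48 and 72 h. The keratins KRT8, KRT18 and KRT7 were called higher at 12, 24 and 72 h, and KRT19 and KRT5 at 12 and 24 h. Of the receptor genes by which triple negative is defined, PGR had no count in any library, whereas ESR1 and ERBB2 were detected in all. ESR1 had from 90 to 153 counts in the control libraries, and its group means were between 2.33 and 5.76 CPM. ERBB2 had group means between 8.87 and 21.5 CPM. The sum of 7 epithelial markers was from 1735 to 2190 CPM without EGF and from 8581 to 9196 CPM at 12 h. It was from 4146 to 5032 CPM at 24 h, 1928 to 2108 CPM at 48 h and 2629 to 3094 CPM at 72 h. KRT18 alone averaged 788 CPM without EGF and 5136 CPM at 12 h. The sum of 3 leukocyte markers was from 0.854 to 1.75 CPM without EGF and from 23.7 to 28.4 CPM at 72 h, nearly all of it CD68, while the pan-leukocyte gene PTPRC had 8 counts or fewer in each library. Endothelial markers (PECAM1 and VWF) summed to 1.68 to 3.26 CPM without EGF, 0.331 to 0.606 CPM at 12 h and at most 5.48 CPM, at 48 h. Fibroblast markers (COL1A1, COL1A2 and PDGFRB) summed to 5.08 to 7.86 CPM without EGF and 13.1 to 14.9 CPM at 72 h, nearly all of it COL1A1, with COL1A2 at 1 count or fewer in each library. COL1A1 was called higher at all 4 times, and PECAM1 lower at 12 h (log2 -2.59, SE 0.289, adjusted p = 2.47e-08) and higher at 48 h. The sums of all 4 marker lists moved with the groups, and their part in the ligand values was not tested. In bulk samples, fewer cells of a type and less RNA per cell cannot be told apart.

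Levels are given as CPM, which are counts scaled to a common library size with TMM factors, and as mean ± SD over 4 replicates where they are summarised. Comparisons used the quasi-likelihood F-test of edgeR, with p-values adjusted by the Benjamini-Hochberg method across the 16522 genes that passed a filter on low counts, and an adjusted p under 0.05 is named a call. Of the 8 ligands, 7 passed the filter, and NRG1 did not. After 12 h of EGF, AREG, EREG, HBEGF, TGFA and EPGN were upregulated and BTC and EGF downregulated, so all 7 tested ligands were called, beside 69.4% of all genes tested. At 24 h, the same 5 ligands were higher and EGF lower, 6 of 7 calls beside 58.8% of all genes. At 48 h, 5 of 7 were called beside 45.8% of all genes, and at 72 h, 5 of 7 beside 61.6%, in both cases the 5 upregulated ligands. A call alone was therefore common among all genes. The median log2 fold change of the 7 ligands was 2.15, 2.90, 1.72 and 3.34 at 12, 24, 48 and 72 h, where that of all genes tested was -0.0544, -0.00713, 0.00987 and -0.00904. The 4 comparisons share the same 4 control libraries.

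**Figure D1:**
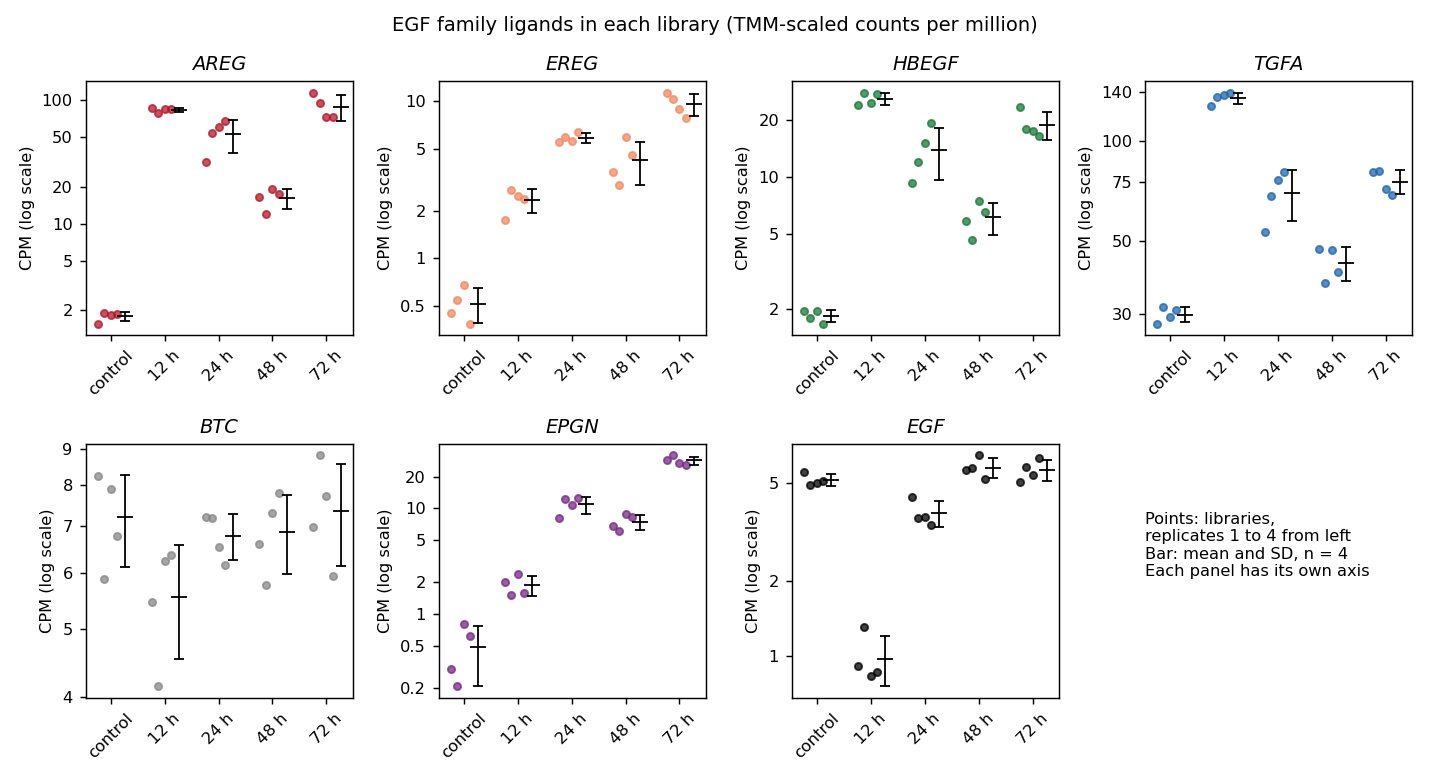
Level of 7 ligands in each library, in CPM on log axes that differ between panels, for the control and each time with EGF. Points are the 4 replicates from left to right, and the bar gives the mean and SD. AREG sits between 1.56 and 1.89 CPM in the control and above 12 CPM in every EGF library, whereas the BTC points of all groups overlap.

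AREG, a ligand of EGFR that mammary epithelium uses during duct growth, had the largest rise of the ligands at 12 h. Its control libraries held 1.56, 1.89, 1.84 and 1.87 CPM. At 12 h, the values were 86.7, 78.3, 84.3 and 84.9 CPM, and at 24 h they were 31.4, 53.9, 60.3 and 67.65 CPM. At 48 h they were 16.5, 12.0, 19.0 and 17.6 CPM, and at 72 h 115.1, 94.4, 72.8 and 72.7 CPM. No EGF library overlapped the control at any time. The libraries at 24 h were spread more widely than those at 12 h, and at 48 h all libraries were below those of the other EGF times. The rise was 46.4-fold at 12 h (log2 fold change 5.54, SE 0.255, adjusted p = 4.66e-13), which ranked 67 from the top of 16522 genes. It was 29.6-fold at 24 h (log2 4.89, SE 0.255, adjusted p = 4.96e-12), 9.06-fold at 48 h (log2 3.18, SE 0.265, adjusted p = 1.06e-08) and 49.4-fold at 72 h (log2 5.63, SE 0.255, adjusted p = 4.56e-13). Set in order, the 72 h and 12 h levels did not differ beyond their spread (88.8 ± 20.3 and 83.6 ± 3.63 CPM, log2 difference 0.09, SE 0.181, adjusted p = 0.677). The 24 h level (53.3 ± 15.7 CPM), the 48 h level (16.3 ± 3.01 CPM) and the control (1.79 ± 0.157 CPM) each differed from the level before it in that order.

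HBEGF, a ligand that cells also hold on their surface as an active precursor, followed AREG in its course. In the control its libraries had 1.96, 1.81, 1.96 and 1.68 CPM. The 12 h libraries had 23.9, 27.7, 24.4 and 27.2 CPM, and the 24 h libraries 9.29, 12.0, 15.1 and 19.1 CPM. It fell to 5.82, 4.65, 7.41 and 6.53 CPM at 48 h and was at 23.4, 17.8, 17.4 and 16.4 CPM at 72 h. Every EGF library was above every control library, and 12 h was the highest group. The rise was 13.9-fold at 12 h (log2 3.79, SE 0.195, adjusted p = 4.02e-14), 7.45-fold at 24 h (log2 2.90, SE 0.199, adjusted p = 1.19e-11), 3.30-fold at 48 h (log2 1.72, SE 0.208, adjusted p = 3.57e-07) and 10.1-fold at 72 h (log2 3.34, SE 0.196, adjusted p = 5.66e-13). All neighbours in the order of its 5 levels differed, with the weakest evidence between 72 and 24 h (adjusted p = 0.031).

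TGFA, which was first known as a growth factor secreted by transformed cells, was already abundant without EGF. Its control libraries had 28.1, 31.5, 29.5 and 30.9 CPM. They had 126.8, 134.9, 136.8 and 138.7 CPM at 12 h and 53.1, 68.1, 76.4 and 80.3 CPM at 24 h. At 48 h they had 47.1, 37.3, 46.9 and 40.2 CPM, and at 72 h 80.2, 80.8, 71.5 and 68.7 CPM. The control and EGF libraries did not overlap, and the gap was narrowest at 48 h. TGFA rose 4.48-fold at 12 h (log2 2.16, SE 0.103, adjusted p = 8.31e-15), 2.31-fold at 24 h (log2 1.21, SE 0.102, adjusted p = 4.2e-10), 1.43-fold at 48 h (log2 0.52, SE 0.102, adjusted p = 0.000233) and 2.51-fold at 72 h (log2 1.33, SE 0.102, adjusted p = 6.48e-11). Its levels at 72 h and 24 h did not differ beyond their spread (log2 difference 0.12, SE 0.099, adjusted p = 0.36), and all other neighbours in the order did.

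EREG, a ligand with low affinity and long action at EGFR, was scarce in the control and had its highest level at the last time. The control libraries had 0.452, 0.547, 0.683 and 0.384 CPM, which rest on 8 to 16 counts each. At 12 h it had 1.77, 2.72, 2.49 and 2.39 CPM, and at 24 h 5.54, 5.93, 5.58 and 6.39 CPM. At 48 h it had 3.55, 2.93, 5.89 and 4.53 CPM, and at 72 h 11.4, 10.4, 8.99 and 7.79 CPM. The 12 h libraries were the lowest of the EGF libraries, and all 72 h libraries were above all others. EREG rose 4.44-fold at 12 h (log2 2.15, SE 0.253, adjusted p = 5.87e-08), 11.1-fold at 24 h (log2 3.48, SE 0.232, adjusted p = 5.41e-12), 8.09-fold at 48 h (log2 3.02, SE 0.235, adjusted p = 1.95e-10) and 18.3-fold at 72 h (log2 4.20, SE 0.225, adjusted p = 7.41e-14).

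EPGN, a ligand that binds EGFR with low affinity, was scarce in the control and, like EREG, had its highest level at 72 h. The control libraries had 0.301, 0.210, 0.811 and 0.625 CPM, from 5 to 19 counts each. At 12 h, they had 2.02, 1.53, 2.38 and 1.58 CPM, and at 24 h 8.16, 12.3, 10.8 and 12.4 CPM. The values were 6.82, 6.16, 8.81 and 8.20 CPM at 48 h, and 28.7, 31.8, 27.1 and 26.0 CPM at 72 h. All EGF libraries were above all controls, and all 72 h libraries above the rest. The rise was 3.79-fold at 12 h (log2 1.92, SE 0.295, adjusted p = 3.29e-06), 22.1-fold at 24 h (log2 4.46, SE 0.239, adjusted p = 9.43e-14), 15.2-fold at 48 h (log2 3.93, SE 0.244, adjusted p = 3.48e-12) and 57.4-fold at 72 h (log2 5.84, SE 0.229, adjusted p = 2.26e-16). The last was the largest estimate of any ligand at any time, but AREG at 72 h was close (log2 5.63, SE 0.255). With each library left out in turn, EPGN at 72 h ranged from 5.57 to 6.23 and AREG from 5.48 to 5.71, so their order is not settled. The deposited normalized values of EPGN move its log2 ratio of group means from 1.95 to 3.89 at 12 h, from 4.49 to 5.51 at 24 h, from 3.95 to 4.98 at 48 h and from 5.87 to 7.36 at 72 h. The direction holds and the size depends on the normalization. At 24 h the order of AREG and EPGN does too, since AREG had ratios of 4.90 by CPM and 4.92 by the deposited values.

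**Figure D2:**
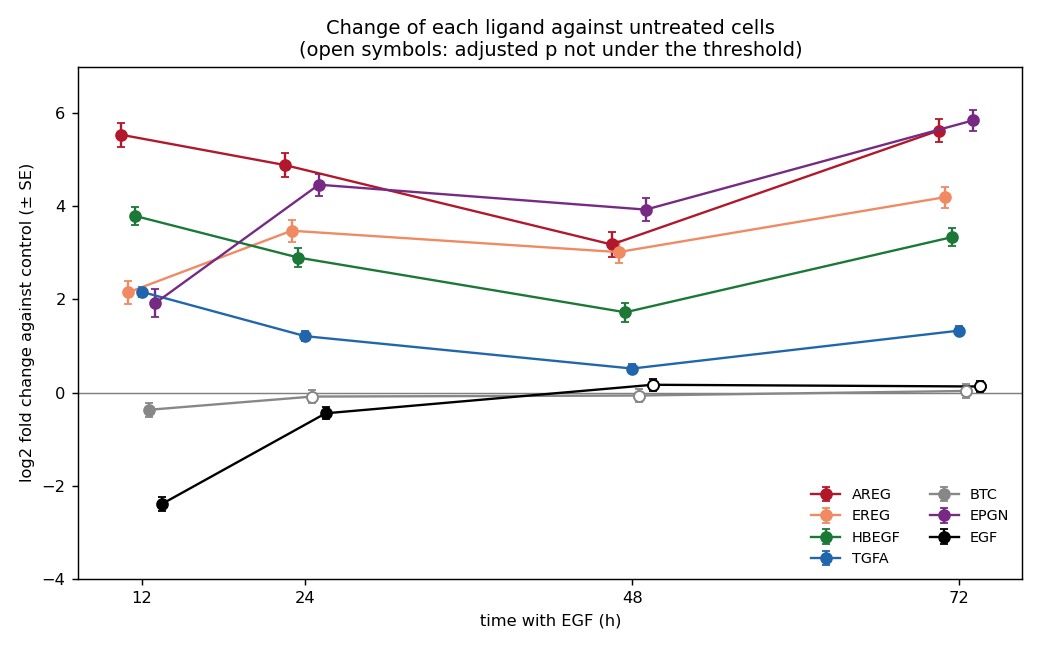
Log2 fold change against the control (y axis, ± SE) for each ligand at 12, 24, 48 and 72 h with EGF (x axis), with open symbols where the adjusted p was not under 0.05. AREG, HBEGF and TGFA are highest at 12 or 72 h and lowest at 48 h, EREG and EPGN have their lowest change at 12 h and reach 4.20 and 5.84 at 72 h, and EGF goes from -2.39 at 12 h to 0.13 at 72 h.

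The RNA of the EGF gene itself moved the other way at first. Its control libraries had 5.53, 4.92, 4.99 and 5.09 CPM, and the 12 h libraries 0.909, 1.31, 0.8285 and 0.861 CPM. At 24 h they had 4.40, 3.62, 3.65 and 3.37 CPM, at 48 h 5.65, 5.72, 6.46 and 5.17 CPM, and at 72 h 5.05, 5.80, 5.36 and 6.32 CPM. The 12 h libraries were below all others, the 24 h libraries lay below the control, and those at 48 and 72 h overlapped it. EGF RNA fell 5.24-fold at 12 h (log2 -2.39, SE 0.153, adjusted p = 1.69e-12) and 1.36-fold at 24 h (log2 -0.45, SE 0.129, adjusted p = 0.00475). It was not called at 48 h (log2 0.17, SE 0.123, adjusted p = 0.282) or at 72 h (5.63 ± 0.554 against 5.13 ± 0.271 CPM, log2 0.13, adjusted p = 0.379). With the deposited normalized values, the log2 ratio of group means was -1.33 at 24 h, -0.14 at 48 h and -0.36 at 72 h, where the CPM gave -0.45, 0.16 and 0.13.

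BTC was the ligand with the smallest changes. Its libraries had 8.24, 5.89, 7.90 and 6.78 CPM without EGF and 5.46, 4.14, 6.24 and 6.36 CPM at 12 h. The 12 h libraries overlapped the control, with 2 of 4 below all controls. BTC was called lower at 12 h (1.29-fold, log2 -0.37, SE 0.146, adjusted p = 0.027), and this call was lost when the DESeq2 Wald test (adjusted p = 0.0588) or no filter (adjusted p = 0.0655) was used, or without control replicate 1 (0.0935), control replicate 3 (0.0732), 12 h replicate 1 (0.0568) or 12 h replicate 2 (0.131). Its means at 24, 48 and 72 h were 6.77 ± 0.517, 6.86 ± 0.879 and 7.36 ± 1.21 CPM, beside 7.20 ± 1.08 CPM in the control, and none of these was called (adjusted p = 0.625, 0.741 and 0.851). No neighbours in the order of its 5 levels differed beyond their spread, although its highest and lowest groups did (72 against 12 h, log2 0.41, SE 0.147, adjusted p = 0.018).

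NRG1 was close to undetected, and it had no count in 17 of 20 libraries, 2 counts in control replicate 2, 1 count in 24 h replicate 2 and 2 counts in 48 h replicate 3. A library with no count allows up to 3 counts, which is from 0.114 to 0.192 CPM across the libraries, and this limit covers counting error only. A change of NRG1 was not detectable at this depth. Of the other neuregulin genes, NRG3 had no count in any library and NRG4 at most 3, and neither was tested. NRG2, whose product binds ERBB3 and ERBB4, had from 10 to 23 counts in each control library and from 2 to 5 at 12 h. It fell by 2.09, 1.84, 1.43 and 1.38 on the log2 scale at 12, 24, 48 and 72 h (SE 0.381, 0.373, 0.344 and 0.350), with adjusted p = 2.92e-05, 0.000146, 0.0014 and 0.00134, and its EGF libraries did not overlap the control.

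The course between EGF times split the upregulated ligands. From 12 to 24 h, EREG (log2 1.32, SE 0.189, adjusted p = 3.38e-06), EPGN (log2 2.54, SE 0.196, adjusted p = 3.9e-10) and EGF (log2 1.94, SE 0.158, adjusted p = 8.51e-10) rose. AREG (log2 -0.65, SE 0.184, adjusted p = 0.00595), HBEGF (log2 -0.90, SE 0.159, adjusted p = 5.36e-05) and TGFA (log2 -0.95, SE 0.0988, adjusted p = 3.52e-08) fell over the same interval. These are 6 of 7 tested ligands, beside 53.7% of all genes called. From 24 to 48 h, EGF rose (log2 0.61, SE 0.128, adjusted p = 0.000358) and all 5 upregulated ligands fell, which again made 6 of 7, beside 50.2% of all genes. The falls were largest for AREG (log2 -1.71, SE 0.196, adjusted p = 9.53e-07) and HBEGF (log2 -1.17, SE 0.171, adjusted p = 5.58e-06) and smallest for EREG (log2 -0.46, SE 0.176, adjusted p = 0.0331). The call of EREG was lost with the DESeq2 Wald test (adjusted p = 0.0501), with library size only (0.165), and without 24 h replicate 2 (0.0598), 24 h replicate 4 (0.0879), 48 h replicate 1 (0.0988) or 48 h replicate 2 (0.129). The fall of EPGN (log2 -0.53, SE 0.165, adjusted p = 0.0094) was not called with library size only (adjusted p = 0.0539).

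From 48 to 72 h, the 5 ligands rose again, and EGF and BTC were not called, so 5 of 7 were called beside 35.7% of all genes. AREG rose 5.45-fold (log2 2.45, SE 0.197, adjusted p = 1.83e-08), EPGN 3.77-fold (log2 1.91, SE 0.161, adjusted p = 2.51e-09) and HBEGF 3.06-fold (log2 1.62, SE 0.169, adjusted p = 9.39e-08). EREG rose 2.27-fold (log2 1.18, SE 0.171, adjusted p = 8.71e-06) and TGFA 1.76-fold (log2 0.81, SE 0.1, adjusted p = 9.17e-07). In each of these 5 genes, all 72 h libraries were above all 48 h libraries. The share of all genes that separated in this way is not given here. Across the wider pairs, 72 against 12 h gave 6 of 7 calls (67.6% of all genes), with EREG, EPGN, EGF and BTC higher and HBEGF and TGFA lower at 72 h. EPGN was 15.2-fold higher at 72 than at 12 h (log2 3.92, SE 0.191, adjusted p = 3.16e-14) and TGFA 1.78-fold lower (log2 -0.83, SE 0.0984, adjusted p = 9.47e-08). The pair of 48 against 12 h gave 6 of 7 calls (70.3% of all genes), with EREG, EPGN and EGF higher and AREG, HBEGF and TGFA lower at 48 h. That of 72 against 24 h gave 5 of 7 (40.2% of all genes), all higher at 72 h (AREG, EREG, HBEGF, EPGN and EGF).

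By CPM, the 5 upregulated ligands also varied together within the groups at 24, 48 and 72 h. At 24 h, replicate 1 was the lowest library for all 5 and replicate 4 the highest for all 5. At 48 h, replicate 2 was the lowest for all 5, and replicate 3 the highest for AREG, EREG, HBEGF and EPGN. At 72 h, replicate 4 was the lowest for all 5. In the control and at 12 h, no library was lowest for more than 3 of them. With the deposited normalized values, AREG and HBEGF kept this order at 24, 48 and 72 h, but not all 5 did. EPGN at 24 h was then highest in replicate 1 (338) and lowest in replicate 4 (141). At 48 h, TGFA was lowest in replicate 4 (712) and EPGN in replicate 1 (96). At 72 h, both were lowest in replicate 3 (1300 and 662). Genes of one library share its depth and scaling, and the part of either in this order was not tested. The share of all genes with the same lowest or highest library is not given here. The order can therefore not be read as particular to the ligands.

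Over the 20 libraries, log2 CPM of AREG and HBEGF had a Pearson r of 0.983, EREG and EPGN 0.962, and HBEGF and TGFA 0.946. TGFA and EREG had 0.477, TGFA and EPGN 0.323, and TGFA and EGF -0.774. BTC had its highest value, 0.546, with EGF. These r describe 20 libraries that share their groups, their scaling and their controls, so for ligands with large changes they mostly follow the group means. Among 13874 other genes with a mean of at least 1 CPM, the 3 whose courses were most like AREG were CDK6 (r = 0.993), a kinase of the cell cycle, IL1R2 (0.992), a decoy receptor for interleukin 1, and ANXA1 (0.990). Those most like HBEGF were CD55 (0.994), which restrains complement, TIPARP (0.994) and the cell cycle inhibitor CDKN1A (0.991). For TGFA they were F3 (0.992), the tissue factor of coagulation, the kinase PIM1 (0.989) and KLF6 (0.989).

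Genes with courses like that of EREG included LASTR (r = 0.988), a long noncoding RNA, and TMSB4X (0.984), which binds actin. EPGN was most like CTH (0.9797), an enzyme of cysteine synthesis, CLIP4 (0.976) and SLC16A1-AS1 (0.976). The reads of the last, an antisense RNA, could not be told from those of its sense partner if strand was not used in counting. For EGF the 3 were NBR2 (0.986), COL4A2 (0.984), a chain of basement membrane collagen, and AC083841.1 (0.9797). COL4A2 averaged 6.74 CPM without EGF and 1.34 CPM at 12 h, and NBR2 averaged 18.6 and 6.77 CPM. BTC had no gene as close, with CEP95 (0.897), MYZAP (0.831) and ACTR10 (0.825) leading. CEP95 was not called against the control at 12, 24, 48 or 72 h (edgeR adjusted p = 0.128, 0.909, 0.682 and 0.763). CDK6 averaged 15.0 ± 1.36 CPM without EGF and 88.7 ± 7.23 CPM at 12 h. LASTR averaged 0.319 ± 0.128 CPM without EGF and 51.9 ± 3.35 CPM at 72 h. IL1R2 had no count in any control library.

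Levels of different genes were compared per length, as CPM per kb of merged exons. In the control, TGFA (6.04 ± 0.302) was the highest, before BTC (2.56 ± 0.382), AREG (1.09 ± 0.0952), EGF (0.838 ± 0.0442), HBEGF (0.614 ± 0.0447), EPGN (0.268 ± 0.154) and EREG (0.0903 ± 0.0226). Of these neighbours, only EPGN and EREG overlapped between libraries. At 12 h, AREG (50.7 ± 2.20) and TGFA (27.1 ± 1.05) led, and EGF (0.159 ± 0.0364) had the lowest level of the 7. At 48 h, AREG (9.87 ± 1.83) and TGFA (8.64 ± 0.991) overlapped. At 72 h, AREG (53.9 ± 12.3) led, and EPGN (15.7 ± 1.39) and TGFA (15.2 ± 1.23) overlapped. The order was the same with the length of the longest transcript, with the exception of BTC and HBEGF at 48 h, which changed places.

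**Figure D3:**
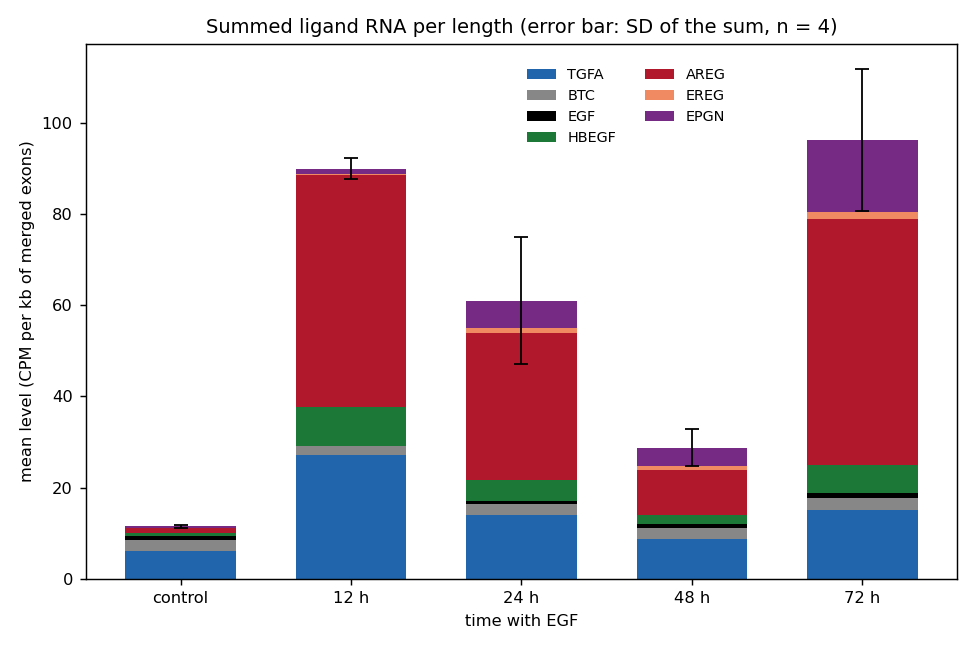
Stacked mean level of the 7 ligands in CPM per kb of merged exons (y axis) in each group (x axis), with the SD of the sum over 4 replicates as the error bar. NRG1, at most 0.0166% of the sum, is not drawn. The sum is 11.5 without EGF, 89.9 at 12 h, 28.8 at 48 h and 96.1 at 72 h, and AREG forms the largest block of the mean in every EGF group.

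Summed over the 8 ligands, RNA per kb was 11.5 ± 0.298 in the control. It was 89.9 ± 2.26, 61.0 ± 14.0, 28.8 ± 4.06 and 96.1 ± 15.6 after 12, 24, 48 and 72 h. The lowest sum of any EGF library was 23.2 and the highest of any control library 11.9. By group mean, TGFA was the largest part of the sum in the control, and AREG in every EGF group, although in 48 h replicate 2 TGFA (32.3%) exceeded AREG (31.4%). TGFA held 52.6% of the sum in the control and 30.1, 23.2, 30.2 and 16.0% after 12, 24, 48 and 72 h. AREG held 9.45% in the control, 56.4% at 12 h, 34.1% at 48 h and 55.6% at 72 h. EPGN went from 2.31% in the control and 1.15% at 12 h to 16.5% at 72 h, and BTC from 22.2% in the control to 2.19% at 12 h. These are shares of RNA per length, and no protein was measured.

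The protein coding genes of the table within 300 kb of the chromosome 4 cluster were compared too. CXCL3 and CXCL2, which encode chemokines that attract neutrophils, lie before EPGN. CXCL3 had 0 or 1 count in each control library. It had 6.48 ± 0.891 CPM at 12 h, at least 47.2-fold higher than 3 counts per control library allow, and 1.56 ± 0.198 CPM at 72 h, at least 11.4-fold higher. CXCL2 averaged 0.245 ± 0.102 CPM without EGF and 2.72 ± 0.675 CPM at 72 h. It was called higher at all 4 times, and was 10.7-fold higher at 72 h (log2 3.42, SE 0.325, adjusted p = 2.36e-09). The sequences of these chemokine genes are much alike, so reads could be split between them. MTHFD2L, an enzyme of mitochondrial folate metabolism, rose at 12, 24 and 72 h (log2 0.65, 0.42 and 0.46, SE 0.105, 0.106 and 0.106, adjusted p = 8.33e-06, 0.00141 and 0.000569) and was not called at 48 h (log2 -0.16, SE 0.107, adjusted p = 0.242). PARM1, on the far side of BTC, rose 6.79-, 10.2-, 4.22- and 15.0-fold (log2 2.76, 3.36, 2.08 and 3.90, SE 0.243, 0.234, 0.254 and 0.228), with adjusted p = 4.18e-10, 1.18e-11, 3.45e-07 and 3.6e-13. Its control level was 0.271 ± 0.106 CPM. BTC lies between AREG and PARM1, and of the 8 genes in this order it was the only one not called higher at any time against the control. At single times, from 24 to 32.9% of all genes tested were called higher. The share called higher at any of the 4 times is not given here.

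**Figure D4:**
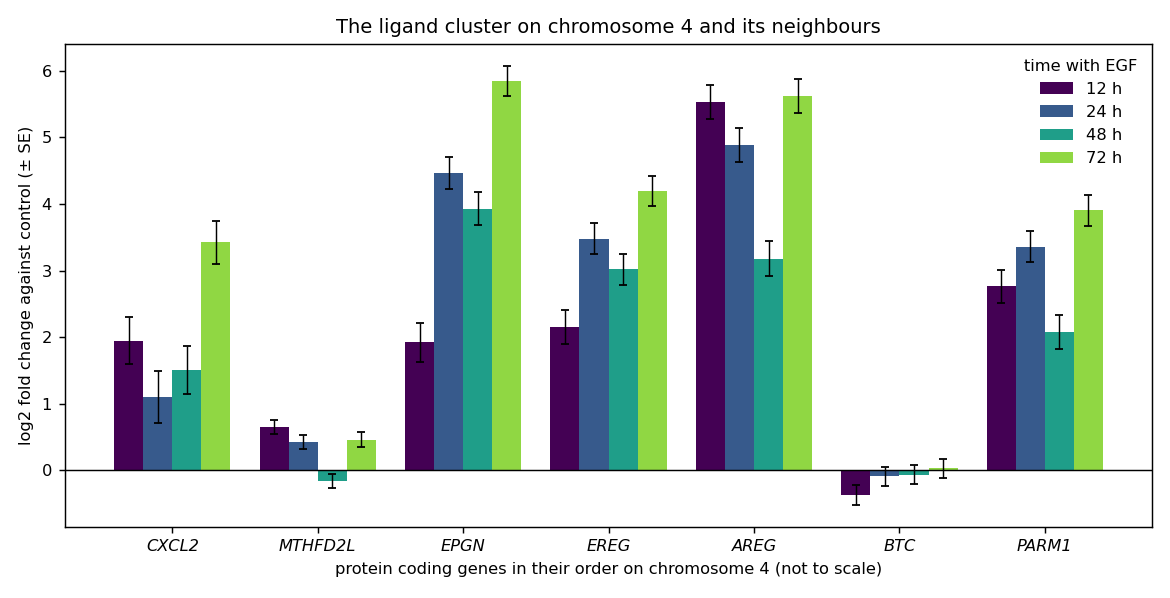
Log2 fold change against the control (y axis, ± SE) at 12, 24, 48 and 72 h for genes in their order along chromosome 4 (x axis, not to scale). CXCL3 is left out because the control libraries held 0 or 1 count. EPGN, EREG and AREG reach 5.84, 4.20 and 5.63 at 72 h, and BTC stays between -0.37 and 0.03.

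Per kb of merged exons, the control level of EGFR was 277 CPM, that of ERBB3 6.88 CPM and that of ERBB2 2.09 CPM. EGFR RNA rose from 3474 ± 103 CPM in the control to 11752 ± 323, 7788 ± 886, 5607 ± 420 and 5867 ± 240 CPM after 12, 24, 48 and 72 h. These are rises of 1.76, 1.16, 0.69 and 0.76 on the log2 scale (SE 0.068, 0.0669, 0.0663 and 0.0664, adjusted p = 1.72e-16, 3.81e-13, 8.31e-09 and 7.07e-10). ERBB2, the receptor with no ligand of its own, fell at 12, 24 and 72 h (log2 -1.28, -0.83 and -0.97, SE 0.154, 0.151 and 0.152, adjusted p = 9.88e-08, 4.99e-05 and 6.89e-06) and was not called at 48 h (log2 -0.25, SE 0.146, adjusted p = 0.174). ERBB3, the neuregulin receptor with little kinase activity, fell at all 4 times (log2 -0.67, -0.40, -0.33 and -0.60, SE 0.0646, 0.0642, 0.0638 and 0.0645, adjusted p = 2.63e-09, 9.23e-06, 0.000153 and 2.57e-08). ERBB4, the other receptor of EREG, HBEGF and BTC, had no count in any library.

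The 13 genes for ligand release are sheddases, their partners and an inhibitor, TIMP3. Of these, 11 were tested, and 5 were higher and 1 lower at 12 h. The counts were 4 higher and 1 lower at 24 h, 3 and 0 at 48 h, and 4 higher and 2 lower at 72 h, with median log2 fold changes of 0.34, 0.16, 0.07 and 0.15. Called in either direction were thus 6, 5, 3 and 6 of 11, which at each time is a smaller share than the 69.4, 58.8, 45.8 and 61.6% of all genes. TIMP3 was lower at 12 and 24 h and higher at 48 and 72 h. Higher and lower in these counts are therefore not directions of release. ADAM17, the main sheddase of AREG, EREG, HBEGF and TGFA, was higher at 12 h (81.0 ± 4.12 against 66.4 ± 7.73 CPM, log2 0.29, SE 0.0867, adjusted p = 0.00545) and was not called at 24, 48 or 72 h. ADAM10, which sheds BTC and EGF, was lower at 72 h (95.8 ± 2.79 against 117.4 ± 11.9 CPM, log2 -0.29, SE 0.0765, adjusted p = 0.00196) and was not called earlier. RHBDF2, the partner that carries ADAM17 to the surface, rose 3.92-fold at 12 h (log2 1.97, SE 0.124, adjusted p = 1.2e-12). ADAM9 had the largest change of the list at 24 and 72 h (log2 1.42 and 1.17, SE 0.0925 and 0.0922, adjusted p = 4e-12 and 9.96e-11), and ADAM8 at 48 h (log2 0.88, SE 0.305, adjusted p = 0.0201). ADAM8 had only 8 to 16 counts in each control library. ADAM9 rose nearly as much at 48 h (log2 0.83, SE 0.0918, adjusted p = 8.36e-08).

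All 16 genes of feedback on the receptor and its pathway were tested. At 12 h, 13 were higher and 2 lower, at 24 h 12 and 2, and at 48 and 72 h 10 and 3 each, with medians of 1.21, 0.91, 0.38 and 0.61. Of all genes tested, 32.9, 29.2, 24.0 and 30.6% were called higher and 36.5, 29.6, 21.8 and 31.0% lower at these times. ERRFI1, which binds and blocks the EGFR kinase, went from 87.8 ± 9.20 CPM to 1221 ± 28.1 CPM at 12 h (log2 3.80, SE 0.16, adjusted p = 3.76e-14). DUSP6, a phosphatase of ERK, had the largest rise of the list at 24 h (log2 2.90, SE 0.128, adjusted p = 2.64e-15), and DUSP5, another, at 48 and 72 h (log2 1.47 and 2.99, SE 0.166 and 0.167, adjusted p = 2.8e-07 and 1.42e-12). LRIG1, which lowers EGFR protein, was lower at all 4 times, from 29.8 ± 1.58 CPM without EGF to 10.3 ± 0.959 CPM at 72 h (log2 -1.53, SE 0.0963, adjusted p = 1.58e-12).

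Of 13 transcription factors of the ERK pathway, 12 were tested, with 11 higher and 0 lower at 12 h, 8 and 3 at 24 h, 5 and 4 at 48 h, and 10 and 1 at 72 h. Their median log2 fold changes were 1.14, 0.77, 0.24 and 0.73. Among all genes tested, 32.9, 29.2, 24 and 30.6% were called higher and 36.5, 29.6, 21.8 and 31% lower at these times. FOSL1, a subunit of AP-1, changed most at each time (log2 6.47, 4.87, 3.19 and 5.06, SE 0.255, 0.248, 0.251 and 0.249, adjusted p = 7.7e-14, 5.41e-12, 6.14e-09 and 2.56e-12). Its control level was 2.78 ± 0.736 CPM, and the EGF levels in order of time were 248.2 ± 21.0, 82.1 ± 25.6, 25.7 ± 1.91 and 93.4 ± 17.0 CPM. From 48 to 72 h, 7 of the 12 rose and none fell, and 7 of the 16 feedback genes rose and 2 fell, where 17.9% of all genes rose and 17.9% fell. The lists hold few genes, and they were not tested as lists.

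**Figure D5:**
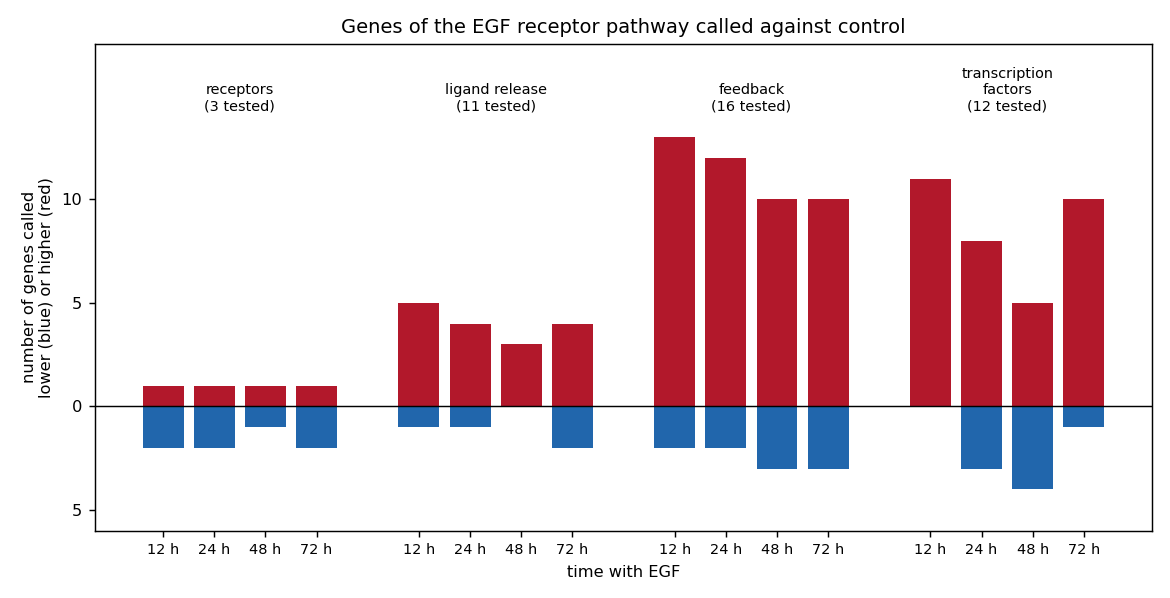
Number of genes called higher (above 0) or lower (below 0) against the control at 12, 24, 48 and 72 h (x axis), for the receptors, the genes of ligand release, the feedback genes and the transcription factors. Feedback genes go from 13 higher at 12 h to 10 at 72 h, and transcription factors from 11 higher at 12 h to 5 at 48 h and 10 at 72 h.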

How the data were processed

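Libraries of mRNA were prepared with the Lexogen Corall kit and sequenced on an Illumina instrument. The authors deposited, in 10 tables with identical counts, a whole-number count per gene and library, which is not normalized. Beside it they deposited a normalized value, here named a score, which was made in DESeq2 and differs from the count by a factor that varies with gene and library. It was used only as an alternative. The authors' own fold changes and p-values in the same tables were not used. The submitters' processing notes name hg38 and DESeq2. The aligner, the counting program, the use of strand and the handling of unique molecular identifiers are not given in the sources used here.

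The counts were analysed in R 4.3.3 with edgeR 4.0.16 (limma 3.58.1), with filterByExpr at its defaults, TMM scaling and the robust quasi-likelihood test in 1 model with a mean for each of 5 groups over 20 libraries. An adjusted p under 0.05 was the threshold, over 16522 genes, and the prior count for fold changes was the default of edgeR. Pearson r used log2 CPM with a prior count of 2. The procedure was run on simulated counts of 15454 genes, of which 200 were changed at 12 h. It called 188 of these, with 13 false calls. Far fewer genes were changed there than were called in these data, so the scaling was not checked in that setting. Any 2 replicates differed by more than the sampling noise (chi-square per gene from 3.53 to 57.5 over 30 pairs). Depth limits genes near 3 counts per library. Lengths and positions came from GENCODE 29 on GRCh38, which held 58036 of the 60271 gene IDs, and promoter sequences and starts from RefSeq on GRCh38.p14. Of 8 ligands, 7 had a promoter window, of which 4 are shown. Protein sequences were not used here.

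Named are all 8 ligands, NRG2, NRG3 and NRG4, the 4 receptors, ADAM10 and ADAM17, from each list the called gene with the largest change at each time, the neighbours within 300 kb on chromosome 4, and for each ligand the 3 genes with the highest r, of which 1 is not reported here. LRIG1 and TIMP3 were named after their values were seen. The ligands and lists were chosen with earlier results of these data known. Alternatives were DESeq2 size factors, upper quartiles or library size only for scaling, factors per gene from the deposited scores, the DESeq2 1.42.0 Wald test, 2 other filters, a fit of only the 8 libraries in question, the replicate number as a block, a prior count of 2, the longest transcript as the length, and each library left out in turn.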

Additional observations from a re-analysis of the deposited data

Results flagged for a closer look

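In 35 groups of 4 libraries (7 ligands in 5 groups), 2 libraries stood apart from the other 3 of their group by Dixon's ratio, which chance alone gives in about 1 in 20 groups. AREG in control replicate 1 was 1.557 CPM, below 1.835 to 1.892 CPM in the other 3 control libraries, with a gap of 0.831 of the range. EGF in EGF 12 h replicate 2 was 1.307 CPM, above 0.8285 to 0.9093 CPM in the other 3 libraries at 12 h, also with a gap of 0.831 of the range. Both lie on the same side of the compared group as the rest of their own group.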

How the results depend on the processing

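The 5 upregulated ligands kept their direction and their call against the control under every alternative that could test them, and so did the fall of EGF at 12 and 24 h. Over 847 fold changes of single ligands, 819 kept direction and side of the threshold, 16 lost the call, 2 gained it and 10 changed sign, none of the last called.

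The replicate numbers did not pair the libraries (r of same-numbered deviations from -0.239 to 0.348 over 40 pairs, 5 over 0.1, 10 best with their own number). With a replicate block, 11577, 9868, 7829 and 10310 genes were called against the control at 12, 24, 48 and 72 h, and 9094, 8558 and 6175 between successive times, beside 11465, 9717, 7562, 10177, 8879, 8292 and 5906 without it, and the ligands called were 7, 6, 5 and 5 and then 6, 6 and 5, as without it.

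Factors per gene from the deposited scores left 11956 genes and 4 ligands (AREG, HBEGF, TGFA and BTC) with enough counts. They called 4, 3, 3 and 3 ligands against the control and 3 in each successive comparison. Genes called were 6336 at 24 h, 4334 at 48 h and 6559 at 72 h against the control, and 5835, 4993 and 3209 between successive times. With at least 10 counts in every library, 5 ligands were testable, and 3 were called at 48 h, 72 h and from 48 to 72 h. Fewer ligands were testable, and no tested one lost its call.

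With library size only, the median of all genes moved to -0.337 at 12 h, -0.15 at 24 h, 0.182 from 12 to 24 h, 0.174 from 24 to 48 h, and with upper quartiles to -0.216 at 12 h and 0.156 from 12 to 24 h. The higher share of all calls at 12 h was 47.4% with TMM, 37.2% with upper quartiles and 30.2% with library size only. From 12 to 24 h these shares were 51.9%, 66.1% and 68.6%, and with factors per gene 39.2%. With library size only they were 36.3% at 24 h, 71.8% from 24 to 48 h and 33.8% from 48 to 72 h, beside 49.6%, 51.5% and 50.0% with TMM.

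BTC changed sign at 48 h without control replicate 1 (log2 0.0040) or 48 h replicate 2 (0.011), at 72 h with library size only (-0.041) or without control replicate 2 (-0.054) or 72 h replicate 2 (-0.059), and from 24 to 48 h without 24 h replicate 4 (-0.024), 48 h replicate 3 (-0.010) or 48 h replicate 4 (-0.046). EGF changed sign from 48 to 72 h without 48 h replicate 3 (0.026) or 72 h replicate 1 (0.026). With 1 library left out, BTC ranged up to 0.12 at 72 h and 0.095 from 24 to 48 h, and EGF from 48 to 72 h went down to -0.093. The call of BTC at 12 h was also lost with only the 8 libraries compared (adjusted p = 0.0517), and that of EREG from 24 to 48 h with upper quartiles (0.0553) or the 8 libraries (0.0565). BTC gained a call from 12 to 24 h with upper quartiles (log2 0.40, adjusted p = 0.0212) and library size only (0.43, 0.019). The causes were not tested.

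Leaving out 1 library at a time gave 6 to 7 ligands at 12 h, 6 at 24 h, 5 at 48 h, 5 at 72 h, then 6, 5 to 6, and 5 in the successive comparisons. Genes called ranged from 11075 to 11487, 9105 to 9723, 6894 to 8088 and 9504 to 10256 against the control, and from 8150 to 8484, 7440 to 8284 and 4912 to 5818 between successive times. Levels of EREG and EPGN in the control rest on 5 to 19 counts per library, which limits the precision of their folds.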
